A study of Mus musculus with 11 samples.

Results

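The levels of miR-511 and miR-378a in mouse cardiac macrophages are described here, through the mature microRNAs (miRNAs) mmu-miR-511-3p and mmu-miR-511-5p, which are the arms of one hairpin, and mmu-miR-378a-3p, printed below without the species prefix. They were chosen by name, as miRNAs linked to alternative activation of macrophages and carried in introns of Mrc1 (miR-511) and Ppargc1b (miR-378a), and they are 3 of the 1247 miRNAs on the array. All animals were Cx3cr1GFP/+ knock-in mice of 2 to 3 months, in which 1 allele of the fractalkine receptor gene drives green fluorescent protein, so every group carries that allele. GFP-positive macrophages were sorted from hearts that had no surgery (day 0) and from hearts at 3, 7 and 30 days after cryoinjury, a model of myocardial infarction made by freezing the heart wall. The day 0 (2 arrays), day 7 (3 arrays) and day 30 (3 arrays) cells were Ly6Clow/CX3CR1high, and the day 3 cells (3 arrays) were Ly6Chigh/CX3CR1low. Wherever day 3 is compared, stage and sorted population therefore cannot be told apart, and the same holds for injury and surgery wherever day 0 is compared.

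Mrc1 encodes the mannose receptor CD206, an endocytic receptor that is widely used as a marker of alternatively activated and many tissue-resident macrophages. miR-511 lies within it and is made from the same primary transcript; in mouse macrophages the 3p arm is the one described as active, with Rock2 among its targets. Ppargc1b encodes PGC-1beta, a coactivator of mitochondrial genes that takes part in the metabolic side of the response to interleukin-4. Its intronic miR-378a has been described as induced by interleukin-4 in mouse macrophages, with Akt1 among its targets, and is also abundant in heart and skeletal muscle.

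The sequence of the miR-511 hairpin shows where the arm that carries most of the results lies. In RefSeq (GRCm38.p6) the hairpin is at chr2:14261003-14261081 on the plus strand, inside Mrc1 (chr2:14229414-14332023, plus strand) and 31589 bases from the start of that gene. The mature miR-511-3p, at chr2:14261051-14261072, is in capitals in the hairpin, and its seed (bases 2 to 8), the stretch that pairs with targets, is in capitals in the mature sequence.
Mir511 hairpin: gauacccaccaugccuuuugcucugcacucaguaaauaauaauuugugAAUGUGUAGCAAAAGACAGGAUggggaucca
miR-511-3p: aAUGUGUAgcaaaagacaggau

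Each array reports a total gene signal per miRNA (scanner units) with the scanner's error and a detection flag. Signals are given below as a percent of the array's 75th percentile, taken over the 126 miRNAs that all 11 arrays detected, or as log2 of that ratio; a level is comparable between arrays for one miRNA, not between miRNAs. Arrays differed greatly in brightness: in scanner units, that percentile lay between 55.7 and 163 (day 0), 805 and 1607 (day 3), 114 and 323 (day 7), and 1453 and 2304 (day 30). The day 0 arrays detected 151 to 173 miRNAs, the day 3 arrays 301 to 338, the day 7 arrays 208 to 270 and the day 30 arrays 290 to 340. Because brightness moves with the day, scaling matters for every comparison. After scaling, the median of the miRNAs detected on all arrays still shifted, by -0.77 (log2) for day 3 minus day 0, -0.21 for day 7 minus day 0, -1.06 for day 30 minus day 0, 0.63 for day 7 minus day 3, -0.49 for day 30 minus day 3 and -0.57 for day 30 minus day 7. Changes relative to these shifts are given beside the main ones. The scanner's error was larger than the difference between replicates 2 and 3 of day 30, whose squared difference was 0.209 of that expected from it, against 2.74 to 43.1 for the other 9 pairs. They were counted as 1 sample, so n = 2 at day 30 and 10 samples entered the fit. The myeloid miRNAs miR-223-3p and miR-142a-3p were detected on all arrays. Of 6 cardiomyocyte markers, miR-208a-3p, miR-208b-3p and miR-499-5p were undetected on every array, and the detected ones summed to 10.1% to 16.4% on day 0 arrays, 1.58% to 3.81% on day 3 arrays, 6.98% to 12.0% on day 7 arrays and 5.26% to 7.74% on day 30 arrays.

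miR-511-3p was detected on all 11 arrays and was lowest in the day 3 Ly6Chigh cells and highest at day 30. Its scaled signal was 30.1% and 21.3% at day 0, 3.46%, 1.89% and 2.04% at day 3, 13.2%, 3.42% and 12.0% at day 7, and 70.3%, 78.4% and 78.8% at day 30. Every day 3 array lay below both day 0 arrays and every day 30 array lay above all others. The day 7 arrays were split: replicate 2, the dimmest of that group, lay within the day 3 range, while replicates 1 and 3 lay between day 3 and day 0. On the log2 scale the group means were -1.98 ± 0.35 at day 0 (SD, n = 2), -5.40 ± 0.48 at day 3 (n = 3), -3.62 ± 1.09 at day 7 (n = 3) and -0.43 ± 0.11 at day 30 (n = 2), so the order was day 3, day 7, day 0 and day 30 from low to high. The unscaled signals run less evenly: they were 49.2 and 11.9 scanner units at day 0, 33.3, 15.2 and 32.7 at day 3, 42.5, 3.89 and 31.3 at day 7, and 1621, 1139 and 1383 at day 30. Without scaling, the day 30 arrays stand apart and the arrays of the other 3 groups overlap. Each array measures a pool of sorted cells, so fewer cells with the miRNA and less of it per cell cannot be told apart.

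**Figure D1:**
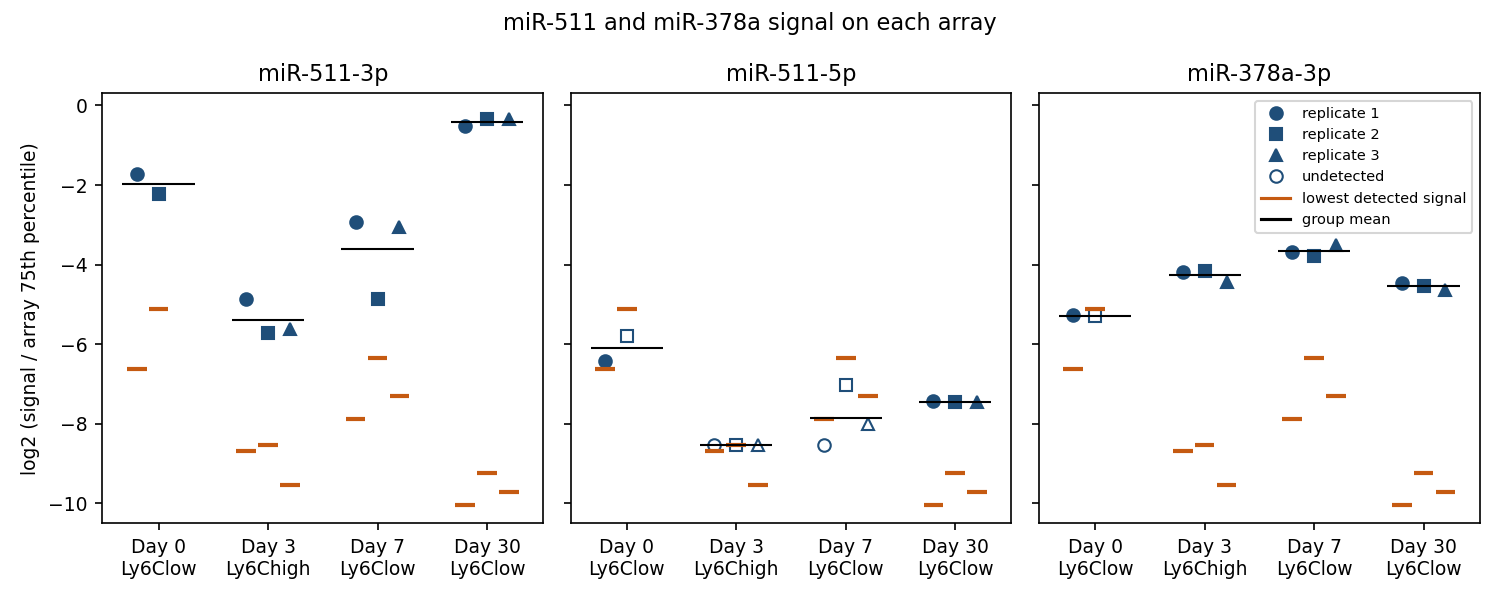
Scaled signal of miR-511-3p, miR-511-5p and miR-378a-3p on each array (log2 of signal over the array's 75th percentile; marker shape gives the replicate, open markers are undetected, black lines are group means, orange lines the array's lowest detected signal). miR-511-3p runs between 1.89% and 78.8% of the percentile, with all day 30 arrays highest; miR-378a-3p stays between 2.53% and 8.77%.

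The clearest change of miR-511-3p was between day 30 and day 3. Its level was 31.4-fold higher at day 30 than at day 3 (log2 change 4.97, SE 0.58, limma adjusted p = 0.000145), and 5.47 on the log2 scale relative to the median shift. All 3 day 30 arrays exceeded all 3 day 3 arrays. In that comparison 9.76% of the 369 tested miRNAs rose and 74.5% had groups that did not overlap. This call held under all 11 other settings, with log2 changes of 4.45 to 5.91. Within the slides the difference was 4.73 on slide 1 and 5.38 on slide 2, and with slide as a block it was 5.10. Of the markers of other cells, miR-1a-3p (cardiomyocyte, 2.14, limma adjusted p = 0.0343) and miR-199a-3p (fibroblast and smooth muscle, 1.18, 0.0459) also rose and miR-150-5p (lymphocyte, -1.99, 0.0289) fell; their part in the change was not tested.

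Day 30 was also above day 7 for miR-511-3p, by 9.12-fold (log2 change 3.19, SE 0.58, limma adjusted p = 0.00104), or 3.76 relative to the median shift. In that comparison 13.6% of tested miRNAs rose and 71.3% had groups that did not overlap. Within slides the difference was 2.48 on slide 1 and 4.52 on slide 2, and 3.31 with the slide as a block. With array brightness as a covariate it was 1.19 (adjusted p = 0.454), which ended the call. In the same comparison all 3 tested myeloid miRNAs rose (miR-142a-3p by 3.55, limma adjusted p = 0.000482), as did the erythroid miR-451a (3.43, 0.000513; detected on 3 of 3 day 30 arrays and 1 of 3 day 7 arrays). miR-214-3p of fibroblasts (-3.09, adjusted p = 0.00175) and miR-150-5p of lymphocytes (-2.69, 0.0033) fell. The cardiomyocyte markers went both ways: miR-133a-3p (-1.46, 0.0143) and miR-133b-3p (-1.36, 0.0237) fell, and miR-1a-3p rose (1.88, 0.039). miR-1a-3p was detected on 3 of 3 day 30 arrays and 1 of 3 day 7 arrays. Their part in the change of miR-511-3p was not tested.

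Against the uninjured heart, miR-511-3p fell at day 3. It was 10.7-fold lower at day 3 than at day 0 (log2 change -3.42, SE 0.58, limma adjusted p = 0.0011), or -2.65 relative to the median shift, in a comparison where 55.3% of tested miRNAs were called, 39.0% fell and 65.6% had groups that did not overlap. The difference was -3.50 within each slide and -3.54 with the slide as a block. The size and sign of this change rest on the scaling. With the 75th percentile over all miRNAs it was -0.88 (adjusted p = 0.541), and scaled to the dmr control features -0.44 (0.7). With no scaling it was 0.076, with the sign turned. Under these settings the median of the miRNAs detected on all arrays shifted by 1.77, 2.22 and 2.73, in that order. The change of miR-511-3p lay below that median in each of them. Beside it, the cardiomyocyte miRNAs miR-133a-3p and miR-133b-3p also fell, with log2 changes of -2.81 (limma adjusted p = 0.000672) and -2.75 (0.000881) for day 3 minus day 0. Other markers rose: miR-199a-3p of fibroblasts by 1.29 (0.0192), and the myeloid miR-142a-3p by 2.82 (0.00237) and miR-223-3p by 1.51 (0.0112). The erythroid miR-451a, undetected at day 0, was at least 2.62-fold higher (0.03). miR-143-3p and miR-126a-5p, undetected at day 0, had fitted changes of -1.64 (0.0417) and -2.11 (0.00885) against background. The part of these markers in the change of miR-511-3p was not tested.

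At day 7 and day 30 the difference of miR-511-3p from day 0 did not pass as fitted, though other settings passed it. The log2 change was -1.64 for day 7 minus day 0 (SE 0.58, limma adjusted p = 0.121), or -1.43 relative to the median shift, although the day 7 and day 0 arrays did not overlap; 3.79% of tested miRNAs were called and 19.5% did not overlap there. Within slides it was -1.26 and -2.64, and -1.76 with the slide as a block. With brightness as a covariate it was -2.36 and passed (adjusted p = 0.0197). For day 30 minus day 0 the log2 change was 1.55 (SE 0.63, 95% interval 0.18 to 2.93, limma adjusted p = 0.0517), or 2.62 relative to the median shift. There 8.94% of tested miRNAs rose, 56.4% were called in either direction and 78.3% had groups that did not overlap. The within-slide values were 1.22 and 1.88, and the slide block gave 1.55 with adjusted p = 0.0226, which passed. It also passed with the percentile over every miRNA (4.50, adjusted p = 0.0143), with no scaling (5.88, 0.00144), with dmr controls (5.48, 0.000681), when only miRNAs detected on all arrays were tested (1.55, 0.0455), with 11 separate arrays (1.58, 0.0217) and with the replicate number as a block (1.51, 0.0189). The sign turned with brightness as a covariate, at -1.17 (adjusted p = 0.601). The cardiomyocyte miRNAs miR-133a-3p and miR-133b-3p had changes of -2.06 (adjusted p = 0.00536) and -1.94 (0.00685) for day 30 minus day 0. Another cardiomyocyte marker, miR-1a-3p, undetected at day 0, was at least 1.82-fold higher but not called (0.247). miR-199a-3p of fibroblasts (2.47, 0.00168) and the myeloid miR-142a-3p (3.63, 0.00129) rose. The other tested fibroblast markers were undetected at day 0 and not called: miR-214-3p (-0.46, 0.565), miR-143-3p (-0.59, 0.467) and miR-199a-5p (0.76, 0.276). The erythroid miR-451a, undetected at day 0, was at least 5.44-fold higher (0.00532). The endothelial miR-126a-5p, undetected at day 0, had a fitted change of -2.36 (0.00762) against background, which is no measured fall. The other endothelial marker, miR-126a-3p, was detected on all arrays of both groups and changed by 0.65 (0.421). The part of these markers in the change of miR-511-3p was not tested.

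Between day 7 and day 3, miR-511-3p was higher at day 7 by 1.78 on the log2 scale (SE 0.52, limma adjusted p = 0.0177), or 1.15 relative to the median shift, while the groups overlapped through day 7 replicate 2. In that comparison 21.1% of tested miRNAs rose and 64.2% had groups that did not overlap. The difference was 2.25 within slide 1 and 0.86 within slide 2, and 1.78 with the slide as a block. Markers of other cells went both ways beside it. miR-133a-3p rose by 2.21 (limma adjusted p = 0.00177), miR-133b-3p by 2.17 (0.00222) and miR-214-3p by 2.79 (0.0033). The erythroid miR-451a fell by 2.38 (0.00355), detected on 1 of 3 day 7 arrays, and the myeloid miR-142a-3p fell by 2.74 (0.00201). Their part in the change was not tested. The change of miR-511-3p turned to -0.56 with no scaling (adjusted p = 0.65) and to -0.025 when scaled to the dmr controls (1). The median of the miRNAs detected on all arrays shifted by -1.71 and -1.17 there, below the change of miR-511-3p in both. That change lost its call with quantile normalization (1.58, adjusted p = 0.123), in the table of the authors (1.59, 0.0611), with the highest floor (1.41, 0.111) and with the percentile over every miRNA (0.57, 0.733). It no longer passed once replicate 2 of day 3 (1.62, adjusted p = 0.0657), replicate 3 of day 3 (1.67, 0.074) or replicate 3 of day 7 (1.50, 0.0832) was left out.

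**Figure D2:**
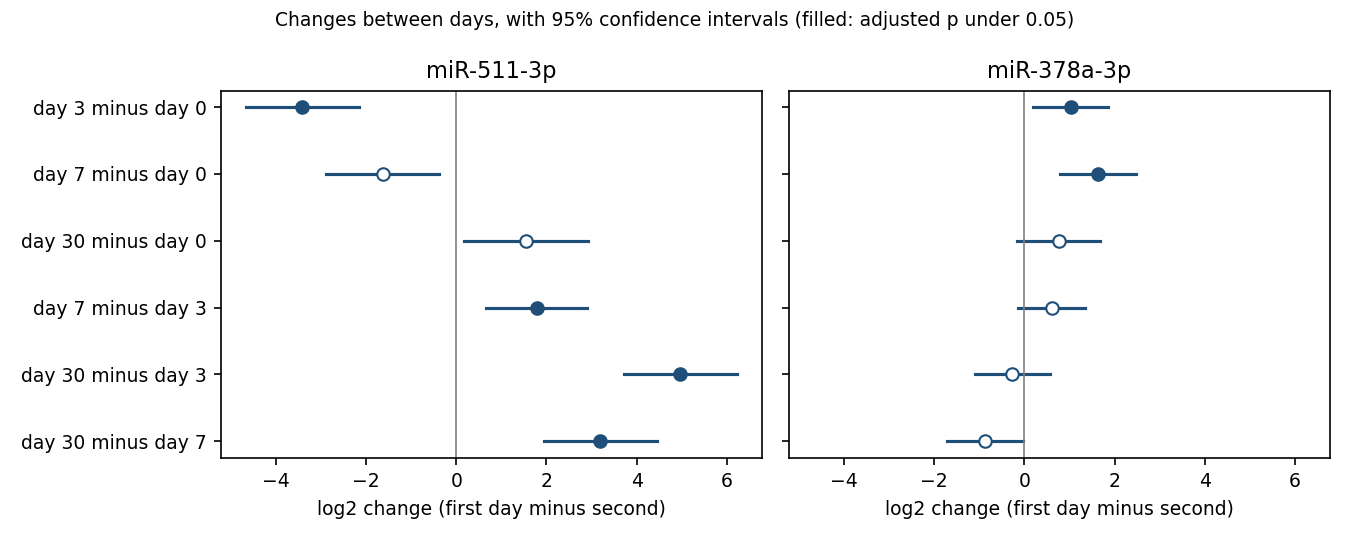
Log2 change of miR-511-3p and miR-378a-3p in the 6 comparisons between days (points, first day minus second; bars, 95% confidence intervals; filled where the limma adjusted p is under 0.05). miR-511-3p passes in 4 comparisons, from -3.42 for day 3 minus day 0 to 4.97 for day 30 minus day 3, and miR-378a-3p in the comparisons of day 3 and day 7 with day 0, at 1.03 and 1.63; the sign of the day 3 minus day 0 change of miR-511-3p turns without scaling.

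The other arm of the hairpin, miR-511-5p, was near or under the limit of detection outside day 30. It was detected at day 30, at 13.3, 8.27 and 10.1 scanner units (0.578%, 0.569% and 0.574% of the percentile), and on day 0 replicate 1, at 1.92 ± 0.558 scanner units (scanner error), or 1.17% ± 0.341. It was undetected on day 0 replicate 2 and on all day 3 and day 7 arrays. The lowest signal that counted as detected there was 2.89% on day 0 replicate 2, 0.243%, 0.271% and 0.134% on the day 3 arrays, and 0.422%, 1.22% and 0.629% on the day 7 arrays, which limits the level of miR-511-5p from above. The day 30 level lies above that limit on all day 3 arrays and on day 7 replicate 1, and under it on day 0 replicate 2 and on day 7 replicates 2 and 3, where a level like that of day 30 would not have been detectable.

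Against day 3, miR-511-5p at day 30 was at least 2.78-fold higher, which sets the day 30 mean of -7.44 (log2) against the mean of the day 3 arrays' own detection limits, -8.92. The fit raises the day 3 signals to the common floor of -8.53, which gave a smaller 2.12-fold (limma adjusted p = 0.108; 1.58 on the log2 scale relative to the median shift). No fold is given for day 30 against day 7, where the limit lies above the day 30 level. For day 30 minus day 0 the log2 change was -1.34 (SE 0.53, limma adjusted p = 0.0446), in a comparison where 47.4% of tested miRNAs fell, with 3 of 3 day 30 arrays and 1 of 2 day 0 arrays detecting it. Relative to the median shift of that comparison the change was -0.27. This value sets the day 30 signals against 1 measured and 1 background signal, and without day 0 replicate 2 it was -1.03 (adjusted p = 0.162). It turned to 2.41 with no scaling, where the day 30 signals of 8.27 to 13.3 units stand against 1.92. For day 3 minus day 0 the fitted change was -2.43 (limma adjusted p = 0.00266; -1.66 relative to the median shift), with all day 3 arrays at the floor and the same background signal in day 0. The measured day 0 signal alone, on replicate 1, was 4.83, 4.34 and 8.76 times the limit of the day 3 arrays after scaling. Before scaling it was 1.92 units against limits of 2.34, 2.18 and 2.15 units, under each of them, so the unscaled signals set no bound. For day 7 minus day 0 the change was -1.75 (limma adjusted p = 0.0721; -1.54 relative to the median shift).

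The arms were then set against each other within each array, where array scaling cancels. The ratio of signals has no meaning as a ratio of molecules, since the probes differ, but its change between arrays does show unequal change of the arms. The 3p signal was 122 ± 15.1, 138 ± 21.8 and 137 ± 18.6 times the 5p signal on the day 30 arrays (scanner error) and 25.6 ± 7.71 times on day 0 replicate 1. On the other arrays only a lower limit can be had, since the 5p arm was undetected: at least 7.40 on day 0 replicate 2, at least 14.2, 6.97 and 15.2 at day 3, and at least 31.2, 2.79 and 19.1 at day 7. All these limits lie under the day 30 ratios, so none of those arrays shows a ratio different from day 30. At the day 30 mean ratio of 132, their 3p signals would have gone with a 5p signal of 0.0294 to 0.322 scanner units, under the lowest detected signals of 1.36 to 2.34. Day 0 replicate 1 is the exception, with a 5p signal 2.77 scanner errors above the 0.373 units of that ratio.

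Fitted over the 51 hairpins with both arms tested, the 3p minus 5p difference of miR-511 was 3.88 higher (log2) at day 30 than at day 3 (SE 0.91, limma adjusted p = 0.0145), in a comparison where 31.4% of hairpins were called. Since the 5p arm was at background on all day 3 arrays, this shows that the 3p arm rose further than the 5p background did, and it does not show a different arm ratio. Leaving out replicate 2 of day 3 (3.72, adjusted p = 0.0533) or replicate 1 of day 30 (3.97, 0.0905) ended the call. For day 30 the differences were 2.89 against day 0 (adjusted p = 0.0554; 31.4% of hairpins called) and 2.78 against day 7 (adjusted p = 0.0568; 23.5% called). The remaining changes were -0.99 for day 3 minus day 0 (adjusted p = 0.379; 45.1% called), 0.11 for day 7 minus day 0 (0.972; 19.6% called) and 1.11 for day 7 minus day 3 (0.368; 23.5% called). Scaling does not cancel in these fitted differences where the 5p signal was raised to the floor, as on all day 3 arrays. With the highest floor every 5p signal lay at the floor. The value of -3.05 for day 3 minus day 0 under that setting is therefore the change of the 3p arm alone and compares no arms.

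**Figure D3:**
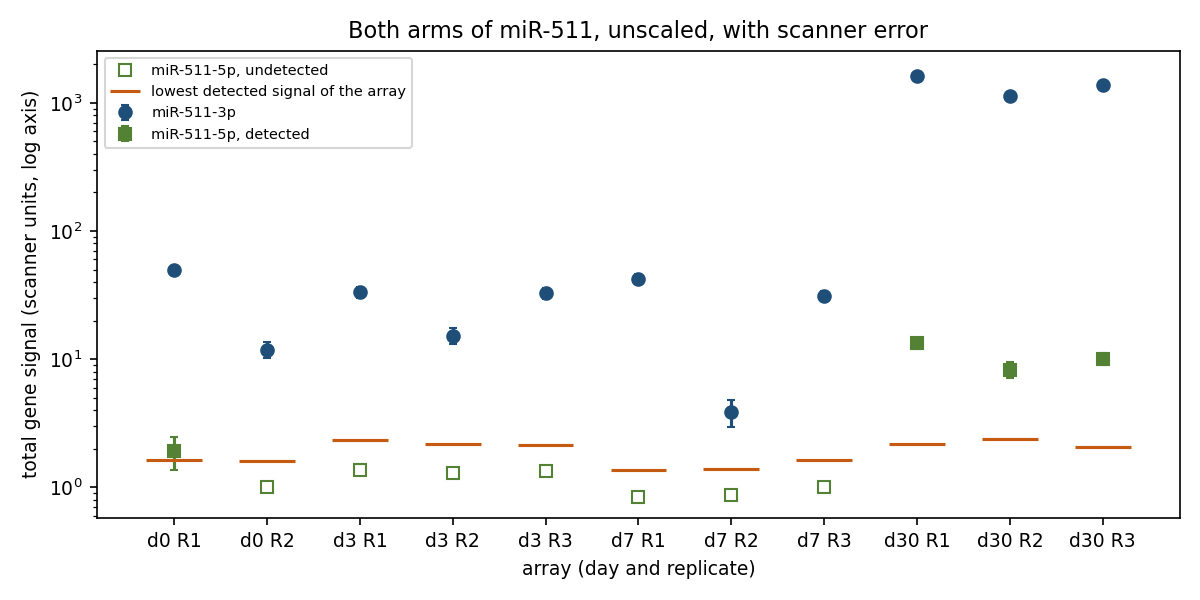
Unscaled total gene signal of both arms of miR-511 on each array (log axis, scanner units; bars are the scanner's error, open squares undetected 5p signals, orange lines the array's lowest detected signal). miR-511-5p stands above the detection limit on the 3 day 30 arrays, at 8.27 to 13.3 units, and barely on day 0 replicate 1, at 1.92 units.

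miR-378a-3p spanned a narrower range than miR-511-3p, and its groups stood in another order. It was detected on 10 of 11 arrays, at 2.58% on day 0 replicate 1, at 5.51%, 5.54% and 4.61% at day 3, at 7.80%, 7.23% and 8.77% at day 7 and at 4.50%, 4.30% and 3.98% at day 30. On day 0 replicate 2 it was undetected, with a background signal of 2.53% and a lowest detected signal of 2.89%, still under every injured array. The groups did not overlap in any of the 6 comparisons: from low to high the order was day 0, day 30, day 3 and day 7. Of the 369 tested miRNAs, 65.6% did not overlap for day 3 minus day 0, 19.5% for day 7 minus day 0 and 78.3% for day 30 minus day 0. The shares were 64.2% for day 7 minus day 3, 74.5% for day 30 minus day 3 and 71.3% for day 30 minus day 7. The group means (log2) were -5.29 ± 0.019 at day 0 (n = 2, 1 of them background), -4.26 ± 0.15 at day 3 (n = 3), -3.66 ± 0.14 at day 7 (n = 3) and -4.53 ± 0.085 at day 30 (SD, n = 2).

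miR-378a-3p passed in 2 comparisons, both against the uninjured heart. Day 7 was 3.09-fold above day 0 (log2 change 1.63, SE 0.39, limma adjusted p = 0.0393; 1.84 relative to the median shift), where 3.25% of tested miRNAs rose. This direction and call held under all 10 other settings that could be run, at 1.46 to 2.87. The call was lost when any 1 of 6 arrays was left out (any of day 3, replicate 1 or 3 of day 7, or replicate 1 of day 30), with changes of 1.56 to 1.64 and adjusted p-values of 0.0733 to 0.167. Day 3 was above day 0 by 1.03 on the log2 scale (SE 0.39, limma adjusted p = 0.0378; 1.79 relative to the median shift), where 16.3% rose. That call was lost in 7 of 11 fits with 1 array left out (replicate 2 of day 0, any of day 3, replicate 1 or 3 of day 7, or replicate 1 of day 30), while the change stayed at 0.98 to 1.11 with adjusted p-values up to 0.111. It was also lost with brightness as a covariate (0.97, adjusted p = 0.313). Within slides the changes were 1.68 and 1.51 for day 7 minus day 0 and 0.97 and 1.13 for day 3 minus day 0, and with the slide as a block 1.62 and 1.02. The day 0 group rests on 1 detected signal, 4.21 ± 1.13 scanner units. For day 7 minus day 0, miR-214-3p, undetected at day 0, was at least 5.46-fold higher (limma adjusted p = 0.0393). miR-199a-3p, detected on 1 of 2 day 0 arrays, rose by 2.09 (0.0227). For day 3 minus day 0 the cardiomyocyte miR-133a-3p and miR-133b-3p fell and some markers of other cells rose, as given above. Their part in these changes was not tested.

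The other comparisons of miR-378a-3p did not pass in limma. Day 30 minus day 0 was 0.76 (adjusted p = 0.139; 1.82 relative to the median shift), and it passed under 6 other settings, at 0.58 to 4.81. Day 7 minus day 3 was 0.60 (95% interval -0.14 to 1.35, adjusted p = 0.164), day 30 minus day 3 was -0.27 (-1.11 to 0.57, adjusted p = 0.626), and day 30 minus day 7 was -0.87 (-1.71 to -0.037, adjusted p = 0.0833). These 3 changed sign with the scaling: with no scaling they were -1.74, 0.57 and 2.31. Relative to the median shift they were -0.029, 0.22 and -0.31. In the same comparisons 37.1% of tested miRNAs were called (16.0% lower), 30.9% (21.1% lower) and 47.7% (34.1% lower).

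The array holds other miR-378 names, whose sequences are shown because near-identical miRNAs can share label on a probe, so that their signals cannot be told apart with certainty. With seeds in capitals, the RefSeq sequences are:
miR-378b: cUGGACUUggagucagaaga
miR-378c: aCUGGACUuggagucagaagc
miR-378d: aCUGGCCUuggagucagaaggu
They lie at chr11:88352839-88352858 (plus strand), chr14:46954905-46954925 (minus strand) and chr10:126710355-126710376 (minus strand) in GRCm38.p6. miR-378b and miR-378c match at 19 of 20 aligned bases, miR-378b and miR-378d at 18 of 20, and miR-378c and miR-378d at 19 of 21.

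miR-378b and miR-378d were detected on all arrays but day 0 replicate 2, and in neither did a comparison between days pass. Their log2 changes were 0.70 and 0.49 for day 3 minus day 0, 0.92 and 0.88 for day 7 minus day 0, and 0.99 and 0.94 for day 30 minus day 0. The order of days thus differed from that of miR-378a-3p, with day 30 highest on average for both, though above day 7 by less than the spread (0.063 and 0.059). Over the 10 samples miR-378a-3p had Pearson correlations of 0.72 with miR-378b and 0.58 with miR-378d, against 0.94 between those. The opposite arm, miR-378a-5p, was detected on all day 3 and day 30 arrays, on 1 of 3 day 7 arrays and on no day 0 array, and no comparison passed. miR-378c was detected on the 3 day 30 arrays and 1 day 3 array only. Detection of both went with the bright arrays.

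**Figure D4:**
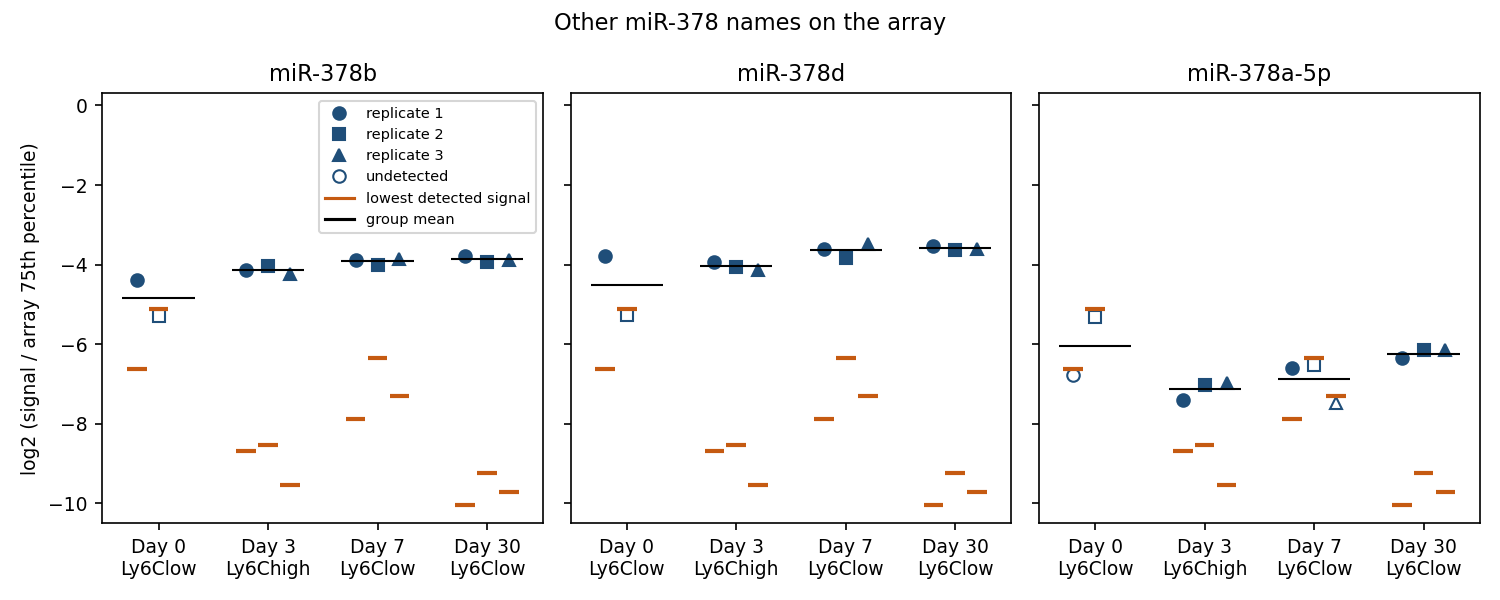
Scaled signal of miR-378b, miR-378d and miR-378a-5p on each array (log2 of signal over the array's 75th percentile; open markers undetected, black lines group means, orange lines the array's lowest detected signal). miR-378b and miR-378d are detected on all arrays but day 0 replicate 2, and miR-378a-5p is undetected at day 0 and on 2 of 3 day 7 arrays.

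The ratio of miR-511-3p to miR-378a-3p signal within an array is also free of scaling, and was looked at after their values were seen, so no test is given. The log2 ratio was 3.54 on day 0 replicate 1 and at least 2.89 on replicate 2, then -0.67, -1.55 and -1.18 at day 3, 0.76, -1.08 and 0.46 at day 7, and 3.96, 4.19 and 4.31 at day 30. Only its changes can be read, since the probes differ. The ratio was lower on all day 3 and day 7 arrays than on any day 0 or day 30 array, whatever the scaling, and the day 3 and day 7 arrays overlapped. Across the 10 samples the Pearson correlation of miR-511-3p with miR-378a-3p was -0.40.

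The miRNAs most like miR-511-3p over the 10 samples, among 125 others detected on all arrays, were miR-30a-5p (Pearson r 0.95), miR-99a-5p (0.92), miR-146a-5p (0.92), miR-3963 (0.82) and miR-5100 (0.80), where the median of all candidates was -0.14. miR-146a-5p, which is induced by NF-kappaB and represses Traf6 and Irak1, had mean levels (log2) of -0.033 at day 0, -4.62 at day 3, -0.99 at day 7 and 0.71 at day 30. miR-30a-5p had -1.53, -4.36, -3.53 and -1.12 on the same days, and miR-99a-5p -0.27, -3.35, -1.29 and -0.041. All 3 were lowest at day 3 and highest at day 30. Their sequences show that none shares the seed of miR-511-3p.
miR-30a-5p: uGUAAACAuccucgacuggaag
miR-99a-5p: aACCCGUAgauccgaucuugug
miR-146a-5p: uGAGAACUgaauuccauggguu
For miR-378a-3p the likeness was weaker, with miR-10a-5p first (r 0.86) and then miR-23b-3p (0.55), miR-27b-3p (0.54), miR-3081-5p (0.50) and miR-1949 (0.49) among 126 candidates with a median of -0.037. miR-10a-5p, from the Hoxb cluster, had mean levels (log2) of -4.32 at day 0, -1.96 at day 3, -2.06 at day 7 and -2.62 at day 30. The points share libraries and brightness, which correlated with miR-511-3p at 0.036 and with miR-378a-3p at 0.15.

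A list of 9 other miRNAs linked to alternative activation (let-7c-5p, let-7e-5p, miR-99b-5p, miR-125a-5p, miR-124-3p, miR-146a-5p, miR-181a-5p, miR-223-3p and miR-34a-5p) moved partly with miR-511-3p. Of these, 8 were tested, and miR-124-3p was undetected on all arrays. For day 30 minus day 3, 5 of 8 rose and none fell, where 9.76% of all tested miRNAs rose and 21.1% fell, with a median log2 change of 2.26 against -0.41 over all tested miRNAs. With the highest floor 3 rose and 1 fell. Further settings gave 5 higher and 1 lower: only miRNAs detected on all arrays, the slide block, 11 separate arrays, the replicate block and brightness. As fitted, miR-223-3p had a change of -1.19 (limma adjusted p = 0.0506). The largest rises were those of miR-146a-5p (5.33, SE 0.66, limma adjusted p = 0.000157), miR-99b-5p (3.14, SE 0.44, 0.00031) and miR-125a-5p (2.49, SE 0.47, 0.00235), the last 2 being encoded in 1 cluster with let-7e. The median was positive under every setting, at 1.16 to 3.20. For day 3 minus day 0, 6 of 8 fell and 1 rose, where 39.0% of all tested miRNAs fell and 16.3% rose, with a median of -2.21 against -0.79 over all; miR-99b-5p fell by 4.59 on the log2 scale (limma adjusted p = 4.27e-05) and miR-223-3p, a granulocyte and monocyte miRNA, rose by 1.51 (adjusted p = 0.0112). The median of the list turned to 1.29 with no scaling, 0.78 when scaled to dmr controls and 0.34 when the percentile took in every miRNA. Over all tested miRNAs it was 2.34, 2.11 and 1.63 there, so the list stayed below all tested miRNAs. Day 7 minus day 3 had 5 higher and 1 lower, where 21.1% of all tested were higher and 16.0% lower. The median of the list was 1.80 against 0.61 over all, and with no scaling -0.54 against -1.425 over all. For day 7 minus day 0 limma called 0 of 8 at an adjusted p under 0.05, where 3.79% of all tested were called. At an unadjusted p under 0.05 limma had 4 of 8, against 135 of all 369 tested. For day 30 minus day 0 there were 1 higher and 2 lower, where 8.94% of all tested were higher and 47.4% lower. For day 30 minus day 7 there were 2 higher, where 13.6% were.

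**Figure D5:**
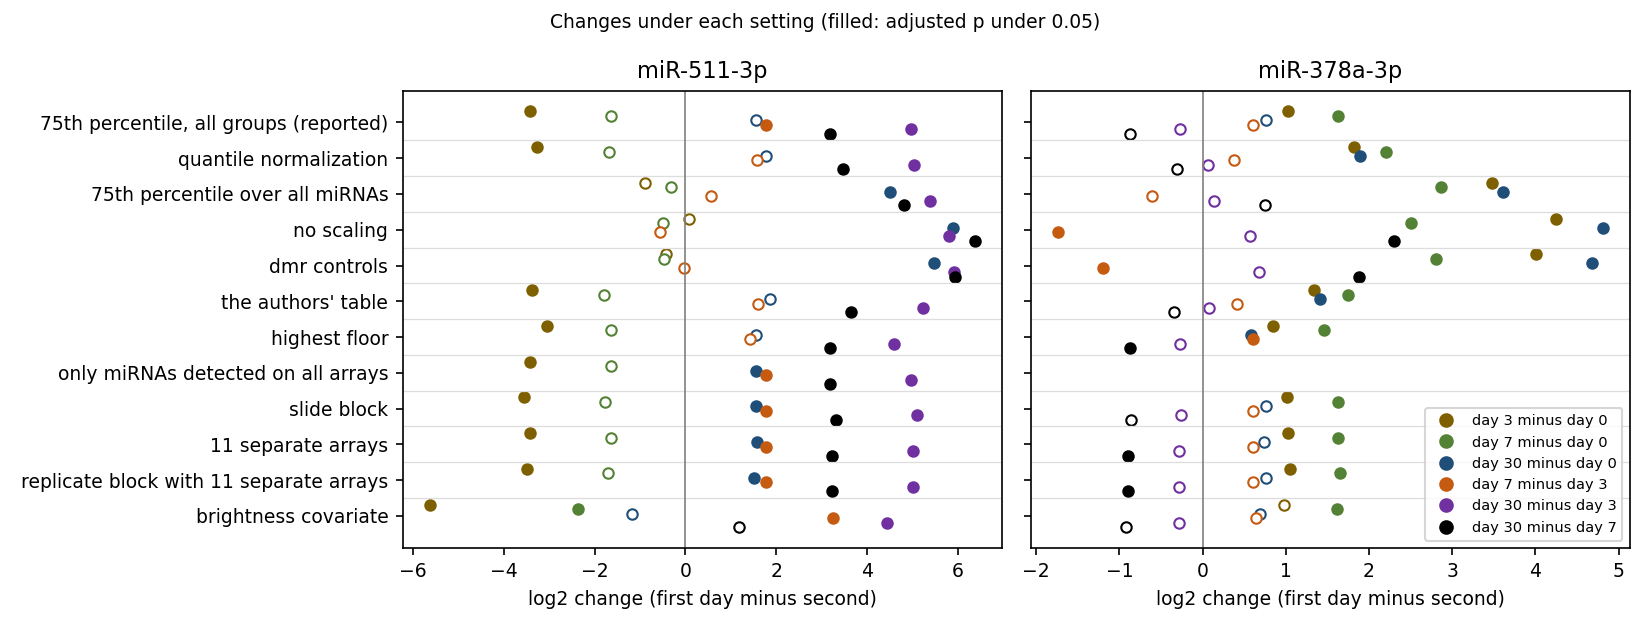
Log2 changes of miR-511-3p and miR-378a-3p in each comparison under each processing setting (filled where the limma adjusted p is under 0.05; colours give the comparison). The day 30 minus day 3 change of miR-511-3p stays between 4.45 and 5.91, and the day 7 minus day 0 change of miR-378a-3p between 1.46 and 2.87; the other comparisons lose a call, gain one or turn in sign under at least 1 setting.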

How the data were processed

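Total RNA (100 ng per sample) was labelled with Cy3 and hybridised to 1-colour miRNA arrays, per the labels' protocols, which call the samples independent biological replicates. Images were read with Agilent Feature Extraction, per the submitters' processing notes, which give no version. Per the file headers, each deposited scanner file holds a total gene signal (an intensity in scanner units, not logged), an error, and a flag for detection (0 or 1), for each of 1247 miRNAs and 21 controls. The authors' deposited table holds log2 values of 317 miRNAs; its columns share 1 set of sorted values, as quantile normalization leaves them, and it was used as an alternative. The members and lists were chosen with earlier results of these data known.

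Each signal was divided by the array's 75th percentile, taken over the 126 miRNAs that every array detected, raised to a floor where lower (0.00271, log2 -8.53), and log2 was taken. Tests covered the 369 miRNAs with detection on 2 or more of 11 arrays; 852 were never detected. An undetected miRNA's deposited signal equals its error and is background. In R 4.3.3 with jsonlite 2.0.0, limma 3.58.1 fitted 4 group means over 10 samples, with 6 residual degrees of freedom and Benjamini-Hochberg adjustment over all tested miRNAs in each of 6 comparisons, at a threshold of 0.05. The 3p minus 5p difference was fitted likewise over 51 hairpins. A level bound sets the detected group against each array's lowest detected signal. The named miRNAs are the 3 members, the other miR-378 names, the 5 miRNAs of highest Pearson correlation with a member, and up to 3 called members of a list. The number of arrays limits the precision.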

Additional observations from a re-analysis of the deposited data

How the results depend on the processing

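Limits: day 0 rests on 2 dim arrays and day 30 on 2 independent samples, and brightness and day go together. Undetected signals are bounds: those of miR-511-5p on day 0 replicate 2 and all day 3 and day 7 arrays, and of miR-378a-3p on day 0 replicate 2. The detected signals of both on day 0 replicate 1 are near the detection limit. Ranges below over fits that leave out 1 array are written as "leaving out 1". Filtering on miRNAs detected on all arrays gives no value for miR-378a-3p, miR-511-5p or the arm difference. With the highest floor every miR-511-5p signal lies at the floor, so the arm difference under that setting equals the change of miR-511-3p alone.

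Day 3 minus day 0 gave, for miR-511-3p, -0.88 with the percentile over all miRNAs, 0.076 with no scaling and -0.44 with dmr controls (leaving out 1: -3.69 to -3.17); for miR-378a-3p, 0.97 with the brightness covariate, which lost the call (leaving out 1: 0.98 to 1.11); and for the arm difference, -3.05 with the highest floor (leaving out 1: -1.55 to -0.44). The 204 calls became 71 with the highest floor, 73 with miRNAs detected on all arrays and 68 with brightness (leaving out 1: 128, without day 0 replicate 2, to 240).

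Day 7 minus day 0 gave, for miR-511-3p, -2.36 with brightness, which passed (leaving out 1: -1.98 to -1.01), for miR-378a-3p 1.56 to 1.69 leaving out 1, and for the arm difference -1.64 with the highest floor and -0.093 with the slide block (leaving out 1: -0.57 to 1.15, below 0 without replicate 2 of day 0 or replicate 1 or 3 of day 7). The 14 calls became 39 with quantile normalization, 61 with the percentile over all miRNAs, 45 with no scaling, 80 with dmr controls, 22 in the authors' table, 4 with miRNAs detected on all arrays, 24 with the slide block and 69 with brightness. Leaving out 1, they were 169 and 43 without replicates 1 and 2 of day 0, 5, 0 and 0 without those of day 3, 9, 114 and 0 without those of day 7, and 0 without replicate 1 of day 30; at an unadjusted p under 0.05 limma had 125, 116, 38 and 109 in the 4 fits with 0 calls.

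Day 30 minus day 0 gave, for miR-511-3p, 4.50 with the percentile over all miRNAs, 5.88 with no scaling, 5.48 with dmr controls, 1.55 with miRNAs detected on all arrays, 1.55 with the slide block, 1.58 with 11 separate arrays, 1.51 with the replicate block, all of which passed, and -1.17 with brightness, which did not (leaving out 1: 1.31 to 1.80). For miR-511-5p it gave -0.17 with quantile normalization, 1.27 with the percentile over all miRNAs, 2.41 with no scaling, 2.44 with dmr controls, 0 with the highest floor, 0.17 in the authors' table and 0.96 with brightness (leaving out 1: -1.65 to -1.03). For miR-378a-3p it gave 1.89 with quantile normalization, 3.62 with the percentile over all miRNAs, 4.81 with no scaling, 4.68 with dmr controls, 1.41 in the table of the authors and 0.58 with the highest floor (leaving out 1: 0.70 to 0.78). The arm difference was 2.89 with the slide block, 2.92 with 11 arrays and 2.83 with the replicate block (leaving out 1: 2.34 to 3.45). The 208 calls became 68 with the highest floor, 81 with miRNAs detected on all arrays and 0 with brightness, where limma had 75 at an unadjusted p under 0.05 (leaving out 1: 102 to 263, with 115 without day 0 replicate 2 and 102 without day 30 replicate 1). The miR-511-3p call was gained without replicate 1 of day 0 or replicate 1 or 2 of day 7, and that of miR-511-5p was lost without day 0 replicate 2, any day 3 array, day 7 replicate 3 or day 30 replicate 1.

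Day 7 minus day 3 gave, for miR-511-3p, 1.58 with quantile normalization, 0.57 with the percentile over all miRNAs, -0.56 with no scaling, -0.025 with dmr controls, 1.59 in the table of the authors and 1.41 with the highest floor (leaving out 1: 1.44 to 2.41), with the call lost under these 6 settings; for miR-378a-3p, -0.61, -1.74 and -1.20 with the percentile over all miRNAs, no scaling and dmr controls, and 0.60 with the highest floor (leaving out 1: 0.52 to 0.67); and for the arm difference 0.42 to 2.15 leaving out 1. The 137 calls became 208 with no scaling, 74 with the highest floor, 75 with miRNAs detected on all arrays and 58 with brightness (leaving out 1: 82 to 220, with 220 without either day 0 array, and 89, 82 and 86 without day 3 replicates 2 and 3 and day 7 replicate 3).

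Day 30 minus day 3 kept its call for miR-511-3p (leaving out 1: 4.81 to 5.25) and gave, for miR-511-5p, 1.37 with the percentile over all miRNAs, 2.41 with no scaling, 2.49 with dmr controls, 2.63 in the authors' table, 1.08 with 11 arrays, 1.08 with the replicate block and 1.53 with brightness (leaving out 1: 1.08 to 1.09); for miR-378a-3p, 0.068 with quantile normalization, 0.14, 0.57 and 0.67 with the percentile over all miRNAs, no scaling and dmr controls, and 0.077 in the authors' table (leaving out 1: -0.36 to -0.22); and for the arm difference 3.72 to 4.16 leaving out 1. The 114 calls became 53 with the highest floor and 50 with miRNAs detected on all arrays (leaving out 1: 29 to 160, with 66, 58 and 29 without day 3 replicates 1 and 2 and day 30 replicate 1).

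Day 30 minus day 7 gave, for miR-511-3p, 1.19 with brightness (leaving out 1: 2.56 to 3.54); for miR-378a-3p, 0.75, 2.31 and 1.88 with the percentile over all miRNAs, no scaling and dmr controls, -0.87 with the highest floor, -0.89 with 11 arrays and -0.89 with the replicate block (leaving out 1: -0.94 to -0.80); and for the arm difference 3.19 with the highest floor, 2.98 with the slide block, 2.81 with 11 arrays and 2.81 with the replicate block (leaving out 1: 1.74 to 3.46). The 176 calls became 89 with the highest floor, 80 with miRNAs detected on all arrays and 13 with brightness (leaving out 1: 110, without day 30 replicate 1, to 208).

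Scaling also moved the split of higher against lower calls. With no scaling it was 250 against 1 for day 3 minus day 0, 45 against 0 for day 7 minus day 0, 276 against 0 for day 30 minus day 0, 2 against 206 for day 7 minus day 3, 76 against 55 for day 30 minus day 3 and 234 against 10 for day 30 minus day 7. The main fit did not pair samples by replicate number. Over 15 same-numbered pairs the correlation ran between -0.25 and 0.50, with 6 above 0.1. This cannot decide whether the numbers pair samples, since every replicate 1 lay on slide 1 and every replicate 2 on slide 2. With the replicate number as a block, the calls were 218, 15, 242, 202, 158 and 213 in the order of comparisons above. The cause of these changes was not tested.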

Other observations

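Of 6 miRNAs linked to classical activation, 3 were tested. For day 3 minus day 0, miR-155-5p, a miRNA induced by inflammatory signals, was detected on all day 3 arrays and on no day 0 array, and was at least 2.68-fold higher at day 3 (limma adjusted p = 0.0188). miR-125b-5p fell by 3.29 (adjusted p = 0.000273) there, and miR-127-3p was undetected in both groups. For day 30 minus day 3, miR-125b-5p rose by 2.32 (adjusted p = 0.00217) and miR-155-5p had a change of -0.86 (0.205). With 1 of the 3 at background, no median of the list is given.

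Of 8 other miRNAs carried in introns of metabolic or contractile genes, 4 were tested. miR-103-3p and miR-107-3p, carried by pantothenate kinase genes, did not pass in any comparison, with changes of 0.68 (limma adjusted p = 0.161) and 0.66 (0.183) for day 3 minus day 0. miR-33-5p, carried by Srebf2, was detected on the 3 day 30 arrays and on no day 0, day 3 or day 7 array. It passed the detection filter through the day 30 arrays alone, so no test of a rise at day 30 is given. Its day 30 level was at least 3.99-fold the detection limit at day 3 and at least 1.20-fold that at day 7. The limit of the day 0 arrays lay above the day 30 level.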
